A study of Sus scrofa with 8 samples.

Results

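Matrix proteases and their tissue inhibitors, the TIMPs, were followed in cultured pig muscle cells that were collected undifferentiated or differentiated. The genes were taken by name from the deposited table, as every symbol that begins with ADAM and a digit, ADAMTS, MMP and a digit, or TIMP and a digit. This gave 56 of the 25285 genes in the table, with 18 MMP, 15 ADAM, 16 ADAMTS, 4 ADAMTS-like and 3 TIMP genes, and no symbol was repeated. The rule itself reads names and not values.

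The cells were primary cells from the skeletal muscle of pigs of the strain labelled LYD, which the protocol calls MuSCs, and 8 libraries were sequenced. Undifferentiated and differentiated cells each gave 2 libraries from females and 2 from males. The labels used here give no age, medium or time in culture, and they do not say that replicates came from separate animals, so the p-values below measure only the spread between these libraries. Values are FPKM (sequenced fragments scaled for transcript length and for a library total that the sources do not specify), which allow a rough comparison between genes.

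MMPs are zinc-dependent enzymes that cut collagens and other matrix proteins, and some of them are anchored in the cell membrane. ADAMs are membrane proteins, many of which release the outer part of growth factors, receptors and adhesion molecules from the cell surface. ADAMTS enzymes are secreted and act on proteoglycans, on the ends of procollagens and on other matrix proteins, while ADAMTS-like proteins share their accessory domains but have no protease domain. TIMPs bind the active site of these enzymes and block it. In skeletal muscle, such proteases remodel the matrix around precursor cells while these migrate and fuse into fibres.

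The libraries matched their labels for muscle differentiation: all 7 muscle genes checked (ACTA1, MYH3, CKM, MYL1, MYOG, TMEM8C and MEF2C) rose and all 3 proliferation genes (MKI67, CCNA2 and TOP2A) fell. Of 4 listed markers of myogenic precursors (PAX7, MYF5, MYOD1 and DES) only 2 were found in the table. Of these, 1 rose (log2 2.18) and 1 fell (log2 -0.94). Pearson's r of log2 values between the libraries of a group was 0.931 to 0.958 across 12603 genes, which are not independent replicates. The number of reads is unknown; the depth estimated from low values, relative to differentiated female replicate 1, was 1.69 to 2.29 in undifferentiated libraries and at most 1.63 in differentiated ones. Differentiated male replicate 1 stood apart in some genes. It was the highest differentiated library for 29.7% of all tested genes, for 14 of the 33 tested protease and TIMP genes and for all 3 proliferation genes. In bulk RNA, fewer cells of a type and less RNA per cell cannot be told apart.

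Of the 56 genes, 33 reached a mean of 1 FPKM over the 8 libraries and were tested. Between the states 10 rose, 15 fell and 8 did not pass (limma on log2(FPKM + 1), Benjamini-Hochberg adjusted p under 0.05 over all 12963 tested genes). The 25 called genes are 75.8% of those tested. Over all tested genes 50.0% were called, with 18.0% that rose and 31.9% that fell. The states did not overlap for 24 tested members, of which 10 were higher and 14 lower in differentiated cells, against 47.3% of all tested genes without overlap, 17.1% higher and 30.2% lower. The median log2 fold change was -0.03 for the tested protease and TIMP genes and -0.18 for all tested genes. Among the called genes 6 of 6 ADAMs and 4 of 5 membrane-bound MMPs fell, while the ADAMTS genes split into 6 that rose and 4 that fell and the TIMPs into 1 of each. No test of family against direction was run. Median-ratio scaling moved the median of all genes up by 0.185 on the log2 scale, and 11 members then rose and 14 fell. Of the calls over all genes 63.9% were falls, and 49.0% under that scaling.

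TIMP1, a secreted inhibitor of most MMPs, had by far the highest level of the 56 genes, and it fell. TIMP1 (ENSSSCG00000012277, Sscrofa10.2 chromosome X, 47372592 to 47376668) was at 926 and 646 FPKM in undifferentiated females and at 543 and 550.4 FPKM in undifferentiated males. In differentiated cells it was at 227, 284, 282 and 249 FPKM in the same order. Every differentiated library lay below every undifferentiated one. The means were 666 ± 179 and 260.3 ± 27.4 FPKM (SD, n = 4 libraries per state), a 2.56-fold lower level (log2 -1.32 ± 0.148 SE, limma adjusted p = 0.000871). TIMP3, the inhibitor that binds to the matrix and also blocks ADAM17, went the other way from a low level. TIMP3 (ENSSSCG00000000155, chromosome 5, 11965791 to 11975326) was at 1.02, 2.74, 2.32 and 3.20 FPKM in the undifferentiated libraries and at 5.59, 7.34, 7.54 and 5.81 FPKM in differentiated cells, with no overlap. It rose 2.83-fold (log2 1.23 ± 0.239 SE, limma adjusted p = 0.00707). TIMP4 was listed at 0 in 4 of 8 libraries and reached at most 0.950 FPKM, so it was not tested.

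TIMP2 is spelled TIMP-2 in the table and so falls outside the pattern of names. It was added after its values were seen, since TIMP1 alone made up 99.6% ± 0.156 of the TIMP sum in undifferentiated cells and 97.5% ± 0.132 in differentiated cells (SD, n = 4). TIMP-2 (ENSSSCG00000017164, chromosome 12, 3293953 to 3337924), which also helps MMP14 to activate MMP2, was at 806, 888, 597 and 782 FPKM in undifferentiated libraries and at 128, 135, 121 and 124 FPKM in differentiated cells. It fell 6.05-fold (log2 -2.57 ± 0.111 SE, limma adjusted p = 3.1e-05), and its mean in undifferentiated cells was above that of TIMP1, though the 2 genes overlapped in range there. The sum over TIMP1, TIMP-2, TIMP3 and TIMP4 went from 1438 ± 255 to 394 ± 29.9 FPKM (SD, n = 4).

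The membrane-bound MMPs held the largest part of the MMP level in undifferentiated cells and mostly fell. MMP15, a transmembrane enzyme, led them: MMP15 (ENSSSCG00000002806, chromosome 6, 17937500 to 17958894) was at 94.0, 127, 148 and 178 FPKM in undifferentiated cells. The differentiated libraries gave 31.6, 33.5, 24.7 and 34.9 FPKM, all under the lowest undifferentiated value. It fell 4.39-fold (log2 -2.07 ± 0.158 SE, limma adjusted p = 0.000242).

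MMP14, also transmembrane and the best known activator of MMP2 (ENSSSCG00000002039, chromosome 7, 81413668 to 81425248), was at 21.5, 23.9, 27.8 and 31.6 FPKM and then at 15.5, 11.4, 18.6 and 15.6 FPKM. Its states did not overlap and it fell 1.72-fold (log2 -0.75 ± 0.130 SE, limma adjusted p = 0.00462). MMP16, the third transmembrane member, fell from 5.40 ± 0.789 to 2.23 ± 1.08 FPKM (log2 -1.05 ± 0.219 SE, adjusted p = 0.00901 by limma, n = 4). MMP25, which is held by a lipid anchor, was at 3.75, 6.33, 5.15 and 6.23 FPKM in undifferentiated libraries and at 0.349, 0.261, 0.433 and 0.111 FPKM in differentiated cells. It fell 18.6-fold on the FPKM scale, the largest ratio among the MMPs tested (log2(FPKM + 1) change -2.29 ± 0.214 SE, limma adjusted p = 0.000479).

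MMP23B was the only one of the 5 tested membrane-bound MMPs that rose. It encodes an unusual short enzyme that is cut free of the membrane and has no hemopexin domain. MMP23B (ENSSSCG00000003351, chromosome 6, 58231351 to 58233984) was at 16.0, 20.9, 26.4 and 19.0 FPKM and then at 43.2, 50.1, 40.4 and 47.7 FPKM. The lowest differentiated value lay above the highest undifferentiated one, with a 2.203-fold rise (log2 1.12 ± 0.152 SE, limma adjusted p = 0.00176). MMP17, the other lipid-anchored member, stayed under 1 FPKM in every library, with a highest value of 0.891 FPKM, and was not tested.

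**Figure D1:**
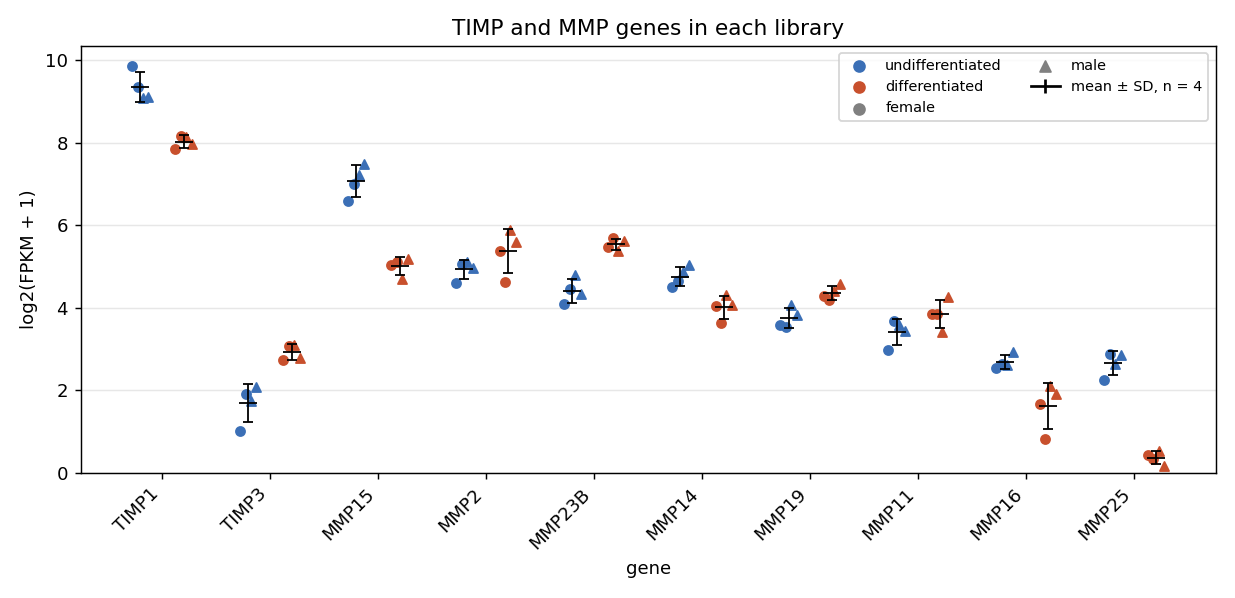
Level of the 2 TIMP and 8 MMP genes that were tested, as log2(FPKM + 1) on the vertical axis, with 1 point per library (circles females, triangles males, blue undifferentiated, red differentiated) and bars for the mean and SD of the 4 libraries of a state. The states separate without overlap for TIMP1, TIMP3, MMP15, MMP23B, MMP14, MMP19, MMP16 and MMP25, and overlap for MMP2 and MMP11.

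Secreted MMPs were few in these cells: 3 of 12 were tested, and 1 of those 3 rose. MMP2, the gelatinase that degrades basement membrane collagen (ENSSSCG00000002829, chromosome 6, 27526398 to 27553927), was at 23.3, 32.1, 33.2 and 30.1 FPKM in undifferentiated libraries and at 40.4, 23.6, 57.9 and 46.8 FPKM in differentiated cells. Differentiated female replicate 2 lay within the undifferentiated range, and MMP2 did not pass (log2 0.44, 95% interval -0.05 to 0.93, limma adjusted p = 0.119). It did pass as a rise under median-ratio scaling (adjusted p = 0.0313), under quantile normalization (0.0439) and without differentiated female replicate 2 (0.0325). MMP19, a secreted enzyme with a broad range of matrix targets, was at 11.0, 10.6, 15.6 and 13.1 FPKM and rose to 18.4, 17.0, 20.0 and 22.7 FPKM (ENSSSCG00000000368, chromosome 5, 22759690 to 22765948). The rise was 1.55-fold without overlap (log2 0.60 ± 0.0982 SE, limma adjusted p = 0.00357). MMP11, which is activated by furin inside the cell, was at 9.85 ± 2.16 and 13.6 ± 3.47 FPKM (log2 0.42, 95% interval -0.16 to 1.00, adjusted p = 0.186 by limma, n = 4).

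The remaining 9 secreted MMPs were at or near 0. They included 8 genes that lie side by side on chromosome 9 between 37133037 and 37504552, a span of 372 kb, in the order MMP7, MMP20, MMP27, MMP8, MMP1, MMP3, MMP12 and MMP13. In this cluster, which holds the classical collagenases and stromelysins, 0 of 8 genes reached the mean for testing. MMP8 and MMP12 were listed at 0 in all 8 libraries, and MMP3, MMP7 and MMP20 were above 0 in 1 library each. The table gives MMP20 a description that names MMP25, so its identity is uncertain. MMP1, interstitial collagenase, had the highest mean of the cluster at 0.847 FPKM, with 1.17, 0.137, 1.23 and 0.665 FPKM in undifferentiated cells and 0.287, 0.476, 2.12 and 0.687 FPKM in differentiated cells. MMP9, the other gelatinase, lies on chromosome 17 and reached at most 1.23 FPKM.

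Summed over the 18 MMP genes, the level was 183, 239, 274 and 296 FPKM in undifferentiated cells and 166, 152, 178 and 191 FPKM in differentiated cells. The 2 states overlapped in this sum, but its make-up differed. MMP15 held 54.7% ± 3.74 of it in undifferentiated cells and 18.3% ± 3.42 in differentiated cells (SD, n = 4). MMP2 went from 12.11% ± 1.41 to 24.2% ± 6.91, and MMP23B from 8.39% ± 1.38 to 26.7% ± 4.46. The ratio of the membrane-bound to the secreted sum was 3.30 to 4.49 in undifferentiated libraries and 0.973 to 1.72 in differentiated ones. The ratio of the sum of TIMP1, TIMP3 and TIMP4 to the MMP sum was 1.87 to 5.08 in undifferentiated libraries and 1.34 to 1.92 in differentiated ones, so that the states overlapped. With TIMP-2 in the sum it was 4.17 to 9.49 against 1.99 to 2.81. These sums and ratios are descriptions with no test.

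**Figure D2:**
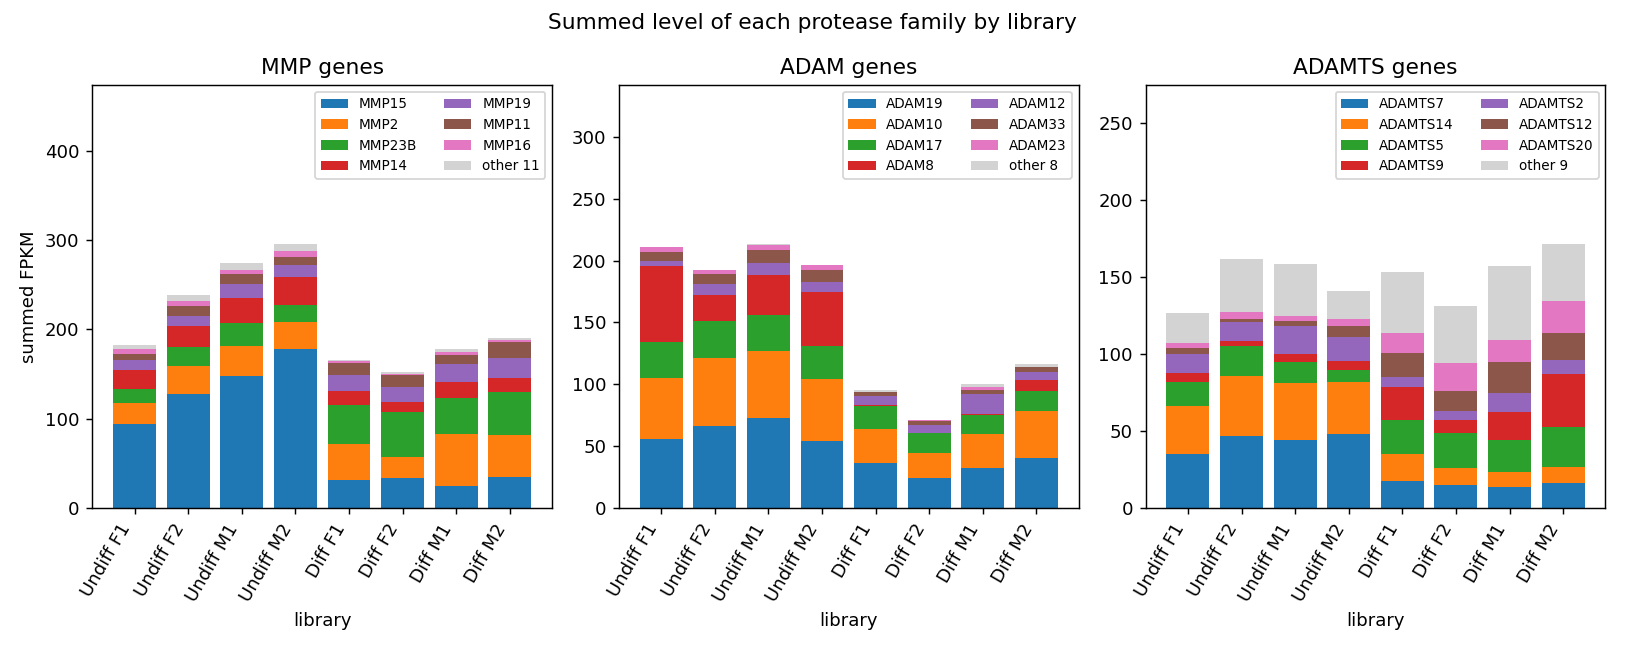
Summed FPKM of the MMP, ADAM and ADAMTS genes in each of the 8 libraries (Undiff and Diff for the states, F and M for the sexes), stacked by the 7 genes of each family with the highest mean and the rest in grey. MMP15 holds 51.5% to 60.1% of every undifferentiated MMP bar, and the differentiated ADAM bars reach 71.5 to 117 FPKM against 192 to 214 FPKM in undifferentiated libraries.

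All 6 ADAM genes that were called fell, of 7 tested. ADAM10 and ADAM17 are the main sheddases: ADAM10 cuts Notch receptors and cadherins, and ADAM17 releases tumour necrosis factor and ligands of the EGF receptor. ADAM10 (ENSSSCG00000004595, chromosome 1, 125473597 to 125527323) was at 49.4, 54.9, 54.1 and 49.8 FPKM in undifferentiated libraries and at 27.2, 20.1, 27.3 and 38.4 FPKM in differentiated cells. Its states did not overlap, and it fell 1.84-fold (log2 -0.89 ± 0.151 SE, limma adjusted p = 0.00408). ADAM17 (ENSSSCG00000008641, chromosome 3, 135096584 to 135122453) was at 28.8, 29.7, 29.2 and 26.8 FPKM and then at 18.5, 16.0, 15.1 and 16.4 FPKM. The spread within each state was small, with SDs of 1.25 and 1.40 FPKM, and it fell 1.73-fold (log2 -0.76 ± 0.0875 SE, limma adjusted p = 0.000965).

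ADAM19, also called meltrin beta, had the highest mean of the ADAM genes in the pattern of names. ADAM19 (ENSSSCG00000017052, chromosome 16, 71570441 to 71669557) was at 55.8, 66.4, 72.5 and 54.1 FPKM in undifferentiated libraries and at 36.7, 24.0, 32.3 and 40.0 FPKM in differentiated cells, a 1.87-fold fall without overlap (log2 -0.90 ± 0.180 SE, limma adjusted p = 0.00785). ADAM33 fell from 8.91 ± 1.50 to 3.51 ± 0.348 FPKM (log2 -1.13 ± 0.106 SE, adjusted p = 0.000486 by limma, n = 4).

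ADAM8, a protease best known from leukocytes, changed most of all 33 tested genes on the log2 scale. ADAM8 (ENSSSCG00000010772, chromosome 14, 153183591 to 153194302) was at 61.2, 21.2, 32.6 and 43.8 FPKM in undifferentiated libraries and at 1.15, 0.735, 1.14 and 8.95 FPKM in differentiated cells. Differentiated male replicate 2 stood well above the other differentiated libraries but under all undifferentiated ones. The means gave a 13.3-fold fall (log2 -3.67 ± 0.556 SE, limma adjusted p = 0.0027), and without that library the log2 change was -4.22 (adjusted p = 0.00198). Leukocyte markers were near 0 in both states: PTPRC, CSF1R, ITGAM and AIF1 each had a mean under 1 FPKM, and CD68 was at 1.11 ± 0.592 and 0.848 ± 0.456 FPKM. CD14 alone was clearly present and also fell, from 13.4 ± 1.51 to 2.06 ± 0.330 FPKM (adjusted p = 9.12e-05 by limma, n = 4). The summed level of the 6 immune markers was 12.2 to 17.0 FPKM in undifferentiated and 3.02 to 4.40 FPKM in differentiated libraries, and its part in the ADAM8 result was not tested.

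ADAM12, or meltrin alpha, known for its part in myoblast fusion, was the tested ADAM that did not pass. ADAM12 (ENSSSCG00000010746, chromosome 14, 146937523 to 147045431) was at 3.91, 8.996, 9.43 and 8.03 FPKM in undifferentiated libraries and at 6.93, 5.76, 16.0 and 5.89 FPKM in differentiated cells. The ranges overlapped, with differentiated male replicate 1 as the highest library (log2 0.11, 95% interval -0.75 to 0.97, limma adjusted p = 0.816). Without that library the log2 change was -0.21 (adjusted p = 0.571). ADAM23, a member without protease activity that binds integrins, fell from 4.51, 2.97, 4.61 and 3.93 FPKM to 0.426, 0.620, 2.68 and 0.517 FPKM (log2 -1.39 ± 0.314 SE, limma adjusted p = 0.0124), again with differentiated male replicate 1 above the other differentiated libraries. Without that library the log2 change was -1.71 (adjusted p = 0.00313).

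**Figure D3:**
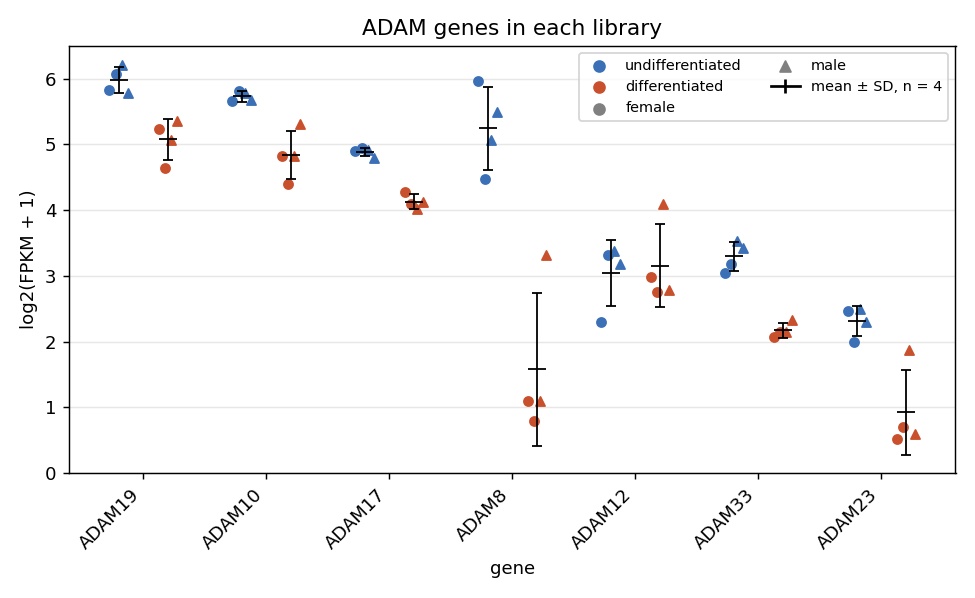
Level of the 7 tested ADAM genes as log2(FPKM + 1), with 1 point per library (circles females, triangles males, blue undifferentiated, red differentiated) and bars for the mean and SD of 4 libraries. ADAM8 drops furthest, with differentiated male replicate 2 at 8.95 FPKM above the other 3, and ADAM12 overlaps between the states.

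ADAM9 and ADAM15 lay outside the pattern of names and were added after their values were seen. Other ADAM rows outside it were near 0 and were not tested. ADAM11 reached at most 0.458 FPKM and ADAM3A at most 0.447 FPKM, and FTNB was listed at 0 in every library. ADAM9, spelled ADAM-9 in the table, also known as meltrin gamma, was at 252, 221, 203 and 243 FPKM in undifferentiated libraries and at 26.6, 25.2, 40.6 and 31.1 FPKM in differentiated cells. It fell 7.44-fold (log2 -2.87 ± 0.121 SE, limma adjusted p = 2.98e-05), from a level above that of every ADAM gene in the pattern. ADAM15, a row with no symbol that was named from the identifier table, fell from 14.2 ± 2.50 to 2.67 ± 0.320 FPKM (log2 -2.04 ± 0.155 SE, adjusted p = 0.000241 by limma, n = 4). With ADAM9 and ADAM15, the ADAM sum went from 447 ± 23.4 to 129 ± 23.0 FPKM, and without them from 203 ± 10.6 to 95.8 ± 18.7 FPKM (SD, n = 4).

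The summed level of the ADAMTS family overlapped between the states, with 147 ± 16.2 FPKM in undifferentiated and 153 ± 16.9 FPKM in differentiated cells (SD, n = 4), while its members went in opposite directions. Genes for enzymes that cut proteoglycans such as versican rose in 4 of 6 tested cases and fell in none, where 18.0% of all tested genes rose and 31.9% fell. Both tested genes for enzymes that trim procollagen fell. The ratio of the proteoglycan to the procollagen group's sum was 0.480 to 0.937 in undifferentiated libraries and 2.98 to 5.08 in differentiated ones.

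Among the proteoglycan group, ADAMTS15 (ENSSSCG00000015250, chromosome 9, 63398130 to 63422854) was at 0.114, 1.02, 0.879 and 0.298 FPKM before and rose to 7.10, 7.05, 3.72 and 6.53 FPKM. Differentiated male replicate 1 was the lowest of these but above every undifferentiated library, and the rise was 10.5-fold on the FPKM scale (log2(FPKM + 1) change 2.18 ± 0.280 SE, limma adjusted p = 0.00146). ADAMTS20, a large enzyme known from pigment cell migration (ENSSSCG00000000795, chromosome 5, 77324374 to 77484603), was at 3.04, 4.38, 2.82 and 4.73 FPKM and rose to 13.2, 17.9, 14.6 and 21.1 FPKM, 4.46-fold (log2 1.90 ± 0.213 SE, limma adjusted p = 0.000881). ADAMTS9, its closest relative in the family (ENSSSCG00000011496, chromosome 13, 50518488 to 50690257), rose from 5.50, 3.66, 5.25 and 5.76 FPKM to 21.2, 8.59, 18.6 and 34.7 FPKM. The differentiated libraries of ADAMTS9 spread widely but none overlapped the undifferentiated ones (4.12-fold, log2 1.72 ± 0.327 SE, limma adjusted p = 0.00652).

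ADAMTS5, a strong aggrecanase that also clears versican from around muscle precursors (ENSSSCG00000012027, chromosome 13, 200405037 to 200449758), had the highest mean of the proteoglycan group, as far as the pattern of names takes it, in both states. It was at 15.7, 19.3, 13.5 and 8.05 FPKM in undifferentiated libraries and at 22.4, 22.8, 20.6 and 26.0 FPKM in differentiated cells, a 1.62-fold rise (log2 0.72 ± 0.179 SE, limma adjusted p = 0.0178). It no longer passed when 1 of 4 libraries was left out, with an adjusted p of 0.0628 for undifferentiated female replicate 1, 0.05 for differentiated female replicate 1, 0.0551 for differentiated female replicate 2 and 0.057 for differentiated male replicate 2.

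ADAMTS8 and ADAMTS1, the other tested members of the proteoglycan group, did not pass. ADAMTS8 was at 2.68 ± 0.618 and 4.38 ± 1.49 FPKM (log2 0.52, 95% interval -0.12 to 1.16, adjusted p = 0.15 by limma, n = 4). Without differentiated male replicate 1 it passed as a rise (log2 0.74, adjusted p = 0.0476). ADAMTS8 lies 17.3 kb from ADAMTS15 on chromosome 9, on the opposite strand. ADAMTS1 (ENSSSCG00000029488, chromosome 13, 200326440 to 200332110) varied more within than between the states, with 6.44, 16.2, 10.3 and 1.48 FPKM in undifferentiated and 4.09, 8.21, 10.3 and 1.05 FPKM in differentiated cells. Male replicate 2 was the lowest library in both states (log2 -0.43, 95% interval -2.23 to 1.37, limma adjusted p = 0.653). The table describes this row as an uncharacterized protein, and another row on the same chromosome is described as ADAMTS1. That row (ENSSSCG00000012026) was at 18.4 ± 4.37 and 11.6 ± 3.78 FPKM and did not pass either (log2 -0.65, adjusted p = 0.0713 by limma, n = 4). It did pass as a fall with 1 mean per state (adjusted p = 0.0484), without differentiated male replicate 2 (0.0368) and with a replicate block (0.0129).

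ADAMTS14 and ADAMTS2 remove the amino-terminal propeptide of fibrillar procollagens. ADAMTS14 (ENSSSCG00000010272, chromosome 14, 79413375 to 79501706) was at 31.2, 39.0, 36.9 and 33.5 FPKM in undifferentiated libraries and at 17.2, 11.2, 9.60 and 10.4 FPKM in differentiated cells, a 2.90-fold fall without overlap (log2 -1.49 ± 0.154 SE, limma adjusted p = 0.000674). ADAMTS2 (ENSSSCG00000024043, chromosome 2, 80749844 to 81010536) was at 12.14, 12.4, 18.3 and 15.3 FPKM and then at 6.83, 5.33, 12.0 and 8.49 FPKM. Differentiated male replicate 1 came close to the undifferentiated range without entering it, and the fall was 1.78-fold (log2 -0.79 ± 0.144 SE, limma adjusted p = 0.00542). ADAMTS3, the third enzyme of this kind, was listed at 0 in 4 libraries and was not tested.

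The other ADAMTS genes split. ADAMTS10, an enzyme of the microfibril matrix (ENSSSCG00000026994, chromosome 2, 71100635 to 71119498), was at 0.557, 0.475, 0.975 and 0.578 FPKM in undifferentiated libraries and at 8.73, 9.60, 15.4 and 10.8 FPKM in differentiated cells. No other tested protease or TIMP gene rose as far, 17.2-fold on the FPKM scale (log2(FPKM + 1) change 2.86 ± 0.163 SE, limma adjusted p = 8.7e-05). ADAMTS6, its closest relative, fell, from 12.0 ± 3.80 to 6.83 ± 2.15 FPKM with overlapping states (log2 -0.73 ± 0.217 SE, adjusted p = 0.0325 by limma, n = 4). It no longer passed with no filter on low values (adjusted p = 0.0516), with quantile normalization (0.0607) or with median-ratio scaling (0.073). The same held when any 1 of 6 libraries was left out (0.0525 to 0.0993), namely all except undifferentiated male replicate 2 and differentiated male replicate 1.

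ADAMTS7 and ADAMTS12 are relatives that both cut the cartilage matrix protein COMP, and they moved in opposite directions. ADAMTS7 (ENSSSCG00000001765, chromosome 7, 53451724 to 53469404) was at 35.1, 46.7, 44.4 and 48.2 FPKM in undifferentiated libraries and at 17.7, 14.8, 13.6 and 16.1 FPKM in differentiated cells, a 2.80-fold fall (log2 -1.43 ± 0.129 SE, limma adjusted p = 0.000437). ADAMTS12 (ENSSSCG00000016816, chromosome 16, 20237302 to 20549746) was at 4.47, 1.59, 3.36 and 7.49 FPKM and rose to 15.3, 13.2, 20.3 and 17.5 FPKM, 3.92-fold (log2 1.86 ± 0.309 SE, limma adjusted p = 0.00384). Neither gene overlapped between the states, and ADAMTS7 stood above ADAMTS12 in every undifferentiated library. COMP itself rose from 0.238 ± 0.0895 to 2.95 ± 1.81 FPKM (adjusted p = 0.0156 by limma, n = 4), but did not pass under quantile normalization (adjusted p = 0.0585). ADAMTS16 was at 0.973, 1.17, 0.814 and 3.34 FPKM and then at 8.10, 3.07, 1.82 and 4.95 FPKM, with overlap, and did not pass (log2 1.05, 95% interval 0.00 to 2.10, limma adjusted p = 0.0878). ADAMTS19, a row with no symbol and so outside the pattern of names, was at 2.27 ± 1.22 and 1.70 ± 1.07 FPKM. It did not pass either (log2 -0.26, adjusted p = 0.586 by limma, n = 4).

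**Figure D4:**
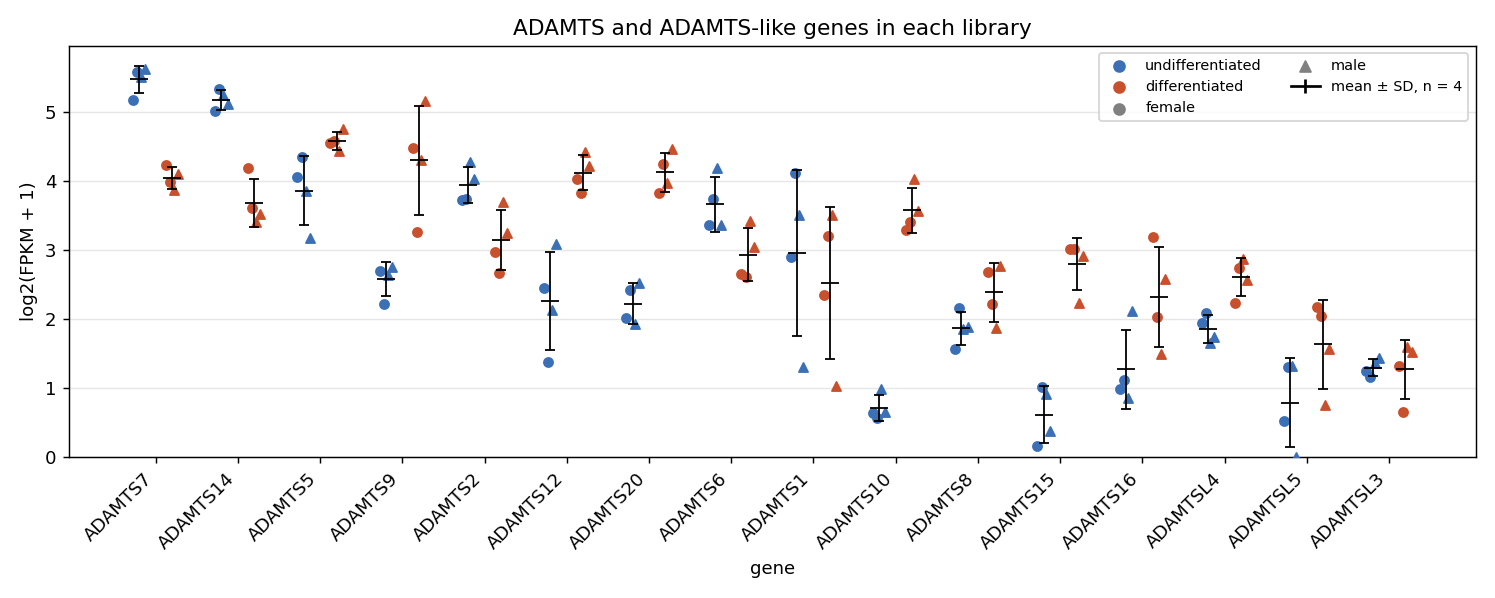
Level of the 13 tested ADAMTS and 3 tested ADAMTS-like genes as log2(FPKM + 1), with 1 point per library (circles females, triangles males, blue undifferentiated, red differentiated) and bars for the mean and SD of 4 libraries. ADAMTS10, ADAMTS15, ADAMTS12, ADAMTS20 and ADAMTS9 lie higher in every differentiated library than in any undifferentiated one, while ADAMTS7, ADAMTS14 and ADAMTS2 lie lower.

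Of the ADAMTS-like genes 3 of 4 were tested and 1 rose. ADAMTSL4, a protein of fibrillin microfibrils, was at 2.83, 3.25, 2.13 and 2.35 FPKM in undifferentiated libraries and at 3.71, 5.66, 6.33 and 4.92 FPKM in differentiated cells, without overlap (1.95-fold, log2 0.75 ± 0.165 SE, limma adjusted p = 0.0113). ADAMTSL5 was listed at 0 in undifferentiated male replicate 2 and at 0.439, 1.48 and 1.51 FPKM in the other undifferentiated libraries, against 3.52, 3.10, 0.680 and 1.96 FPKM in differentiated ones. It did not pass (log2 0.84, 95% interval -0.12 to 1.80, limma adjusted p = 0.123), but did without undifferentiated male replicate 1 (log2 1.17, adjusted p = 0.0483). ADAMTSL3 had nearly the same mean in both states, 1.46 ± 0.206 and 1.48 ± 0.646 FPKM (log2 -0.03, 95% interval -0.55 to 0.49, adjusted p = 0.931 by limma, n = 4). ADAMTSL2 reached at most 0.409 FPKM.

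The 23 genes that were not tested had means of at most 0.847 FPKM, and the tested gene with the lowest mean, ADAMTSL3, was at 1.47 FPKM. They were 10 MMP, 8 ADAM, 3 ADAMTS, 1 ADAMTS-like and 1 TIMP gene. ADAM7, MMP8 and MMP12 were listed at 0 in every library, and the highest single value among the 23 was 2.12 FPKM. Of these genes 17 had a higher mean in differentiated and 3 in undifferentiated cells, and 8 were above 0 in differentiated libraries alone. That count was not made over all the genes under the filter. Leaving the filter out moved the median log2 fold change of all genes from -0.18 to 0.03. Over the whole table, 11940 to 12167 genes reached 1 FPKM in undifferentiated libraries and 12630 to 13074 in differentiated ones. ADAM30 was the one ADAM gene among the 23 whose states did not overlap, with 0, 0, 0 and 0.130 FPKM against 0.389, 0.522, 0.240 and 0.782 FPKM. With no filter on low values it passed as a rise (log2 0.51, limma adjusted p = 0.0333), alone among the 20 genes that this added to the test.

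The change between the states was also compared between females and males. The log2 fold change had the same sign in both sexes for 32 of the 33 tested genes, the exception being ADAMTSL3. Across the 33 genes Pearson's r between the female and the male change was 0.946 and Spearman's rho 0.933, given as a description, since the genes share libraries. In females alone 21 genes were called and in males alone 19, where 35.8% and 33.0% of all tested genes were. For no member did the difference in change between the sexes pass (limma, lowest adjusted p = 0.808; 0 of 33 at an unadjusted p under 0.05, against 6.03% of all tested genes; 0.0231% of all tested genes were called). Nor did the difference between females and males over both states pass for any member (limma, lowest adjusted p = 0.422; 0.0849% of all tested genes were called). At an unadjusted p under 0.05 these were 3 of 33, ADAMTS2, MMP14 and MMP19, against 9.73% of all tested genes.

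**Figure D5:**
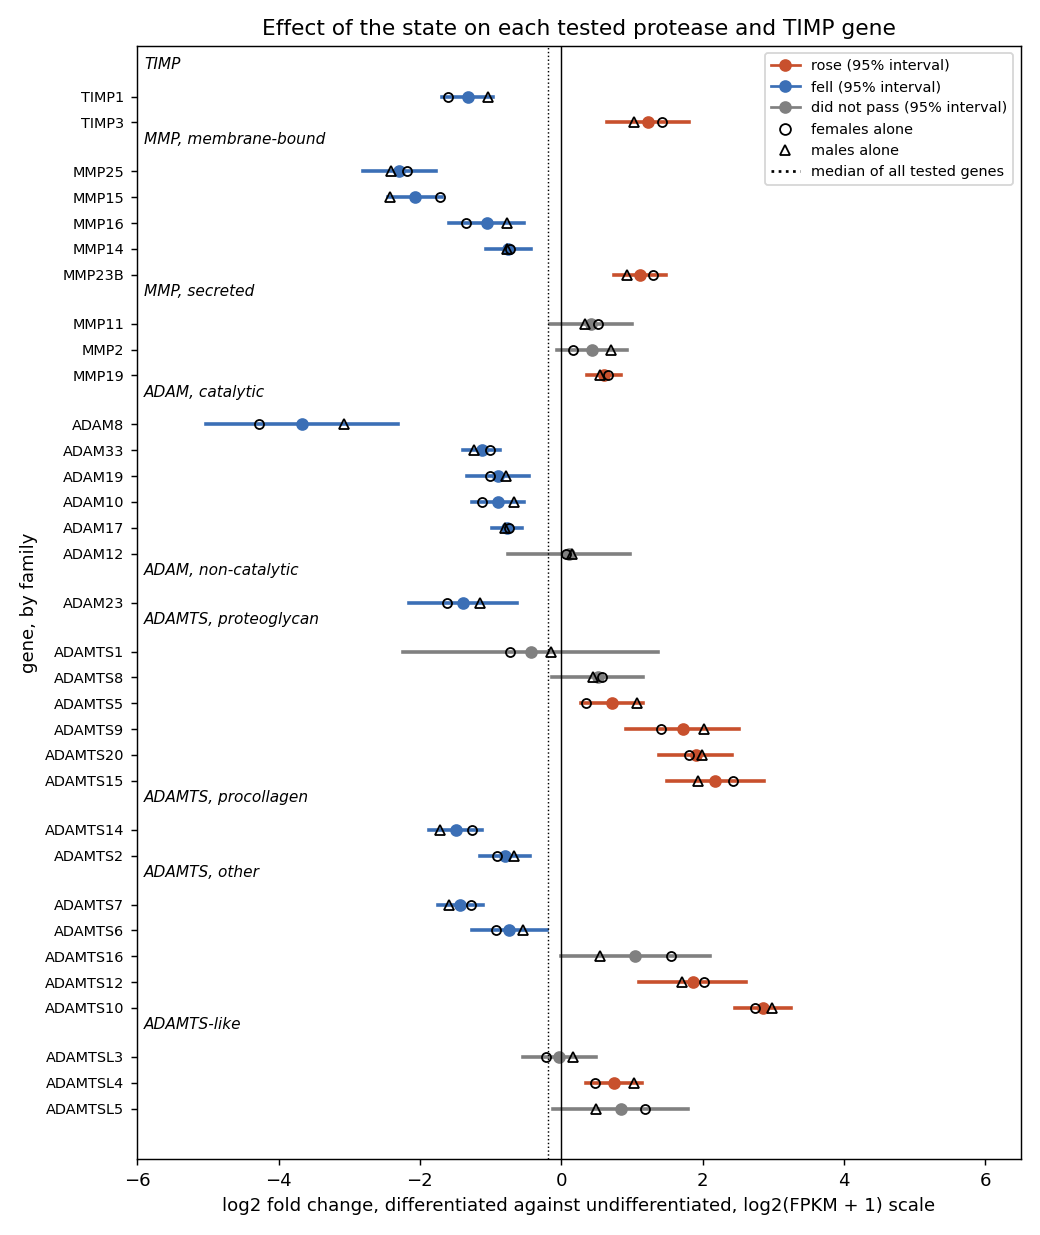
Log2 fold change of differentiated against undifferentiated cells for the 33 tested genes, grouped by role, with the 95% interval from limma as a bar (red rose, blue fell, grey did not pass) and the change in females and in males alone as an open circle and triangle. The dotted line marks the median of all tested genes at -0.18. Called ADAM genes all lie to the left, and called proteoglycan and procollagen ADAMTS genes lie on opposite sides. ADAMTS1, of the proteoglycan group, did not pass and lies to the left (log2 -0.43).

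Genes that work with these proteases were counted by list, against 50.0% called, 18.0% that rose and 31.9% that fell over all tested genes. Of 14 tested activators, other inhibitors and receptors of matrix proteolysis, 1 rose and 10 fell (median log2 -0.82). The proprotein convertases that activate many MMPs, ADAMs and ADAMTS enzymes by removing their propeptide all fell: FURIN from 62.0 ± 6.56 to 37.1 ± 2.23 FPKM (limma adjusted p = 0.00153), PCSK6 from 22.1 ± 3.24 to 3.69 ± 2.81 FPKM (adjusted p = 0.00461), and PCSK5 and PCSK7 with log2 changes of -0.51 and -0.57 (n = 4 throughout). PCSK5 was the weakest of these calls. It no longer passed with a replicate block (adjusted p = 0.0712), quantile normalization (0.107) or median-ratio scaling (0.113), or when any 1 of 7 libraries was left out (0.0505 to 0.0937), namely all except undifferentiated female replicate 1. CD44, which docks proteases at the cell surface, fell as well (log2 -2.51, limma adjusted p = 0.0004). The plasminogen activators went apart, with PLAU, the urokinase type, down from 126 ± 19.2 to 44.4 ± 6.11 FPKM (limma adjusted p = 0.000456) and PLAT, the tissue type, up from 30.2 ± 11.3 to 51.6 ± 6.00 FPKM (adjusted p = 0.0181). PLAT no longer passed when undifferentiated male replicate 2 (adjusted p = 0.0582), differentiated female replicate 1 (0.058) or differentiated male replicate 2 (0.0563) was left out. RECK, a membrane-anchored inhibitor of MMP2, MMP9 and MMP14, was at 8.30 ± 0.710 and 9.30 ± 2.99 FPKM and did not pass (limma adjusted p = 0.649).

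Among 8 partners that guide ADAM10, ADAM17 or related sheddases in the membrane, 2 rose and 4 fell. Among the 4, TSPAN17, no longer passed under either scaling or when any 1 of 7 libraries was left out (adjusted p = 0.0776 to 0.119), namely all except differentiated female replicate 2. The tetraspanins that escort ADAM10 split, since TSPAN14 (log2 1.42) and TSPAN33 (log2 1.14) rose while TSPAN5 fell (log2 -1.87). SDC4 fell (log2 -2.58) and FRMD8, which stabilizes the ADAM17 complex, went from 33.7 ± 3.72 to 14.0 ± 3.15 FPKM (adjusted p = 0.00148 by limma, n = 4). Of 10 tested genes listed for proteins that ADAMs shed or release, 1 rose and 6 fell, with SDC1 at log2 -2.17 and NOTCH3 at log2 1.86. Those that fell include EGFR, which was listed although it is the receptor of released ligands. They also include CD44, which was counted among the activators, other inhibitors and receptors as well.

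Among 12 other matrix proteases 5 rose and 6 fell. The 5 became 2 without differentiated female replicate 1, and 3 without undifferentiated female replicate 2 or undifferentiated male replicate 1, as CTSK, CTSS or FAP no longer passed. HTRA3 fell from 221 ± 60.6 to 37.7 ± 3.61 FPKM (adjusted p = 5.63e-05 by limma, n = 4) and BMP1, which trims the other end of procollagens, from 95.7 ± 16.5 to 21.2 ± 4.08 FPKM (adjusted p = 0.000406 by limma, n = 4). PAPPA (log2 1.57) and PRSS23 (log2 1.01) rose. Of 18 tested matrix proteins that serve as substrates, 5 rose, 7 fell and 6 did not pass, or 6 rose and 5 fell under median-ratio scaling. HSPG2, perlecan, rose from 63.4 ± 13.0 to 206 ± 20.9 FPKM (adjusted p = 0.000602 by limma, n = 4) and COL1A1 by a log2 of 2.59, while LAMB1 (log2 -1.36) and FN1 (log2 -2.22) fell. The states overlapped for FN1, at 270 FPKM in differentiated male replicate 1 and 245 FPKM in undifferentiated female replicate 2, and also for COL1A2 and VCAN. The COL1A1 row spans only 526 bp and its states overlapped too. COL1A2, for the other chain of the same collagen, fell (log2 -0.60, limma adjusted p = 0.0126). It did not pass under median-ratio scaling (adjusted p = 0.0524) or with 1 mean per state (0.101). VCAN, versican, rose from 22.8 ± 11.4 to 48.5 ± 20.4 FPKM (log2 1.11, adjusted p = 0.0147 by limma, n = 4). Leaving out replicate 2 of the undifferentiated females, undifferentiated males or differentiated females ended the call of VCAN, at adjusted p of 0.0501, 0.0514 and 0.0513. In differentiated male replicate 1, 12 of the 18 substrates were at their highest among differentiated libraries.

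Fibroblasts are a common companion of muscle cells in culture and make many of these proteases. Of 5 fibroblast markers with values 4 were tested, and 1 (COL3A1) rose. Their summed level was 72.1 to 142 FPKM in undifferentiated and 253 to 345 FPKM in differentiated libraries, most of it COL3A1. PDGFRA was at 0.299 ± 0.184 and 1.76 ± 1.84 FPKM and LUM at 0.289 ± 0.283 and 2.21 ± 2.83 FPKM (n = 4), and both were highest in differentiated male replicate 1, at 4.50 and 6.37 FPKM. Neither passed. Without differentiated male replicate 2 all 4 tested fibroblast markers rose, with adjusted p of 0.0108 for PDGFRA, 0.0122 for LUM and 0.0421 for DCN by limma, and PDGFRA also rose with a pseudocount of 0.1 (adjusted p = 0.0412). Without differentiated male replicate 1, 11 of the 33 protease and TIMP genes rose and 15 fell, and without differentiated male replicate 2, 9 rose and 14 fell. The part of fibroblasts in the changes of the protease genes was not tested. Of the 3 tested pericyte and smooth muscle markers 3 rose, and 1 to 3 did when 1 library was left out (1 without any undifferentiated library or without differentiated female replicate 1), with a sum over the 5 listed of 47.1 to 62.7 FPKM in undifferentiated and 67.0 to 116 FPKM in differentiated libraries. Endothelial markers other than PECAM1 were near 0, adipocyte markers summed to 0 in undifferentiated libraries and to at most 1.69 FPKM in differentiated ones, and of 4 Schwann cell markers S100B alone was tested and fell (log2 -1.02). The call of S100B was lost when differentiated female replicate 2 (adjusted p = 0.0589), undifferentiated male replicate 2 (0.0594) or undifferentiated female replicate 1 (0.0652) was left out.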

How the data were processed

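Per the labels, RNA was extracted with TRIzol and sequenced as pairs of 100-bp reads after a strand-aware total RNA preparation meant for very small inputs. The authors deposited FPKM per gene and library. Per the submitters' processing notes, the tools were cutadapt 1.6, TopHat2 2.0.12.1 and, for the values, Cufflinks 2.2.1, with the build Sscrofa10.2. Their settings, the scaling total and any use of strand in counting are not given in the sources used here.

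The test was run where a gene averaged 1 FPKM or more, on log2(FPKM + 1), which understates the change of low genes, with R 4.3.3 and limma 3.58.1 (1 mean per state and sex, mean-variance trend, contrasts averaged over sex or state, 4 residual and 2.09 prior degrees of freedom). The two-sided p-values were adjusted over 12963 genes. The fit was tested on simulated data. "Rose" and "fell" are used for adjusted p under 0.05, and intervals are limma's at 95%. Library order in lists of values is female 1 and 2, then male 1 and 2. Relative depth came from the commonest ratio between libraries over 3225 low genes.

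The members, gene lists and marker lists were chosen with earlier results of these data known. The genes named were all TIMPs, then in each group the 3 of highest level, the 3 largest rises and the 3 largest falls, and from each companion list the 2 largest in each direction. Any gene named beyond that, such as COMP, VCAN, COL1A2, FURIN, PCSK5, PCSK7, PLAU, RECK and FRMD8, was picked with its values in view. Symbols came from the table, or for 1841 rows without one from an identifier table. Sequences were not used here.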

Additional observations from a re-analysis of the deposited data

Results flagged for a closer look

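Within a state, 1 library stood apart from the other 3 (Dixon's criterion for 4 libraries) in 5 of 66 gene and state combinations, where chance gives about 1 in 20. In undifferentiated cells this was ADAMTS16 in male replicate 2, at 3.34 FPKM. In differentiated cells ADAM8 stood apart in male replicate 2, at 8.95 FPKM. Differentiated male replicate 1 was the library that stood apart for ADAM12 at 16.0 FPKM, ADAM23 at 2.68 FPKM and ADAMTS15 at 3.72 FPKM, high in the first 2 and low in the last.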

How the results depend on the processing

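The counts of protease and TIMP genes kept within 1.5 times of 10 that rose and 15 that fell under all 17 alternatives: 7 to 11 rose and 12 to 15 fell, and leaving out 1 library gave 9 to 11 and 14 to 15. Of 551 gene and alternative combinations, 526 kept direction and side of the threshold, 13 lost and 6 gained the call, and 6 turned direction. The lost calls were ADAMTS5 and ADAMTS6. The gained calls among the 33 tested genes were MMP2, ADAMTS8, ADAMTSL5 and ADAMTS16. With no filter on low values ADAM30 was also called, as a rise (adjusted p = 0.0333). No called gene turned direction. ADAM12 (log2 0.11) was at -0.15 without undifferentiated female replicate 1 and ranged from -0.21 to 0.44 with 1 library left out. ADAMTS1 (log2 -0.43) was at 0.12 without undifferentiated male replicate 1 and ranged from -1.05 to 0.19. ADAMTSL3 (log2 -0.03) was at 0.0896 under median-ratio scaling and ranged from -0.19 to 0.14. The cause was not tested. Over all genes, 63.9% of the calls fell, 49.0% under median-ratio scaling, 55.0% under quantile normalization and 57.6% with no filter on low values.

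Same-numbered libraries of the 2 states did not deviate together over all tested genes (r = 0.07 in females and -0.03 in males, across 12963 genes). This cannot show whether they came from the same animal, as only the difference between replicates 1 and 2 of each sex enters it. The labels do not say either. With a replicate block by sex and number, 11 members rose and 15 fell. ADAMTS16 then passed as a rise (adjusted p = 0.0388), as did the second ADAMTS1 row as a fall (0.0129). The unknown read depth limits the genes under 1 FPKM.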
